A study of Mus musculus with 20 samples.

Results

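Freshly prepared mammary tumor organoids of MMTV-PyMT mice were set against normal mammary organoids grown for 6 days. The members are all 3 libraries titled as PyMT organoids at day 0 and all 3 titled WT, 6 of the 20 libraries of the series. PyMT organoids at day 0 came from tumors of FVB mice with the MMTV-PyMT transgene, and their RNA was taken straight after the organoids had been prepared, with no culture. WT organoids came from mammary glands of wild type FVB mice and had 6 days of culture, which the labels describe as growth in matrigel with FGF2. Every contrast between the groups thus holds a change of genotype, of source tissue and of time in culture at once, and these cannot be told apart. For context, the same PyMT day 0 libraries were also set against 5 libraries of PyMT organoids after 6 days (3 titled day 6 and 2 with no day in the title) and against 3 libraries of uncultured PyMT tumor, each from a 30 µm frozen section.

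Organoids of this kind are fragments of epithelium freed from tissue by cutting and enzyme digestion. The normal gland has an inner luminal layer, with hormone-sensing and milk-forming cells, and an outer basal layer of contractile myoepithelial cells. In MMTV-PyMT mice the polyoma virus middle T antigen, a membrane protein that activates Src, PI3 kinase and MAP kinase signalling, is expressed from a viral promoter active mainly in mammary epithelium. Immediate early genes such as Fos and Jun are transcribed within minutes of growth factor, stress or wounding signals, without new protein synthesis, and their mRNAs are short-lived. The labels do not say how many animals gave each library, so p-values measure the spread between these libraries.

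Between 18245081 and 27602155 reads fell on genes in the PyMT day 0 libraries, and between 32965468 and 45585014 in the WT libraries. The share of reads on no annotated gene was 9.82 to 10.5% at day 0 and 6.07 to 7.49% in WT. Mitochondrial genes took 1.88 to 2.79% of gene counts at day 0 and 1.85 to 2.66% in WT. The median gene had an SD of 0.272 on the log2 scale between the day 0 libraries and 0.222 between the WT libraries. Epithelial markers were high in both groups. Epcam, a cell surface protein of epithelia, stood at 1116, 954 and 1220 CPM (read counts scaled to library size) at day 0 and 1141, 1126 and 1265 CPM in WT, and the luminal keratin gene Krt8 at 1949, 2102 and 2216 CPM at day 0 and 1899, 1664 and 1844 CPM in WT. The middle T transgene was not analysed here. Of the libraries used for context, replicate 3 of the PyMT day 6 organoids stood apart from the other 4 cultured PyMT libraries, and so did replicate 3 of the Neu-NT tumor sections, which enters only the shared estimate of spread. Leaving both out raised many counts of calls, also against WT, and the counts without them are given for many of the lists. Of 18591 genes then tested, 2374 were called higher and 2244 lower at day 0 than in WT. Against 6 day PyMT organoids 3051 were then higher and 2650 lower, so that list counts without these libraries stand beside a larger total.

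Of 18698 genes tested in 1 edgeR quasi-likelihood model over all 20 libraries, 1035 (5.54%) were higher and 1072 (5.73%) lower in PyMT day 0 organoids than in WT organoids at a Benjamini-Hochberg adjusted p under 0.05, 11.3% in either direction. At an unadjusted p under 0.05 there were 5464 genes. The median log2 fold change over all genes tested was 0.000799. For 23.4% of genes every day 0 library was above every WT library, and for 25.4% every day 0 library was below. The 5 strongest calls among higher genes with at least 50 CPM were Fosb, Zfp36, Jun, Klf6 and Csrnp1, and all 5 are in the immediate early list. The 5 strongest among lower genes were Pdzk1ip1, Id4, Ugp2, Cadm1 and Zfp397. Counts of calls moved with the libraries and tools used: with only the 6 libraries compared 2794 genes were higher and 2817 lower, and without WT replicate 3 the counts were 310 and 307. Leaving out day 0 replicate 1 gave 612 higher and 349 lower genes, and leaving out day 0 replicate 2 gave 489 and 276, so that 63.7% and 63.9% of the calls were then higher.

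**Figure D1:**
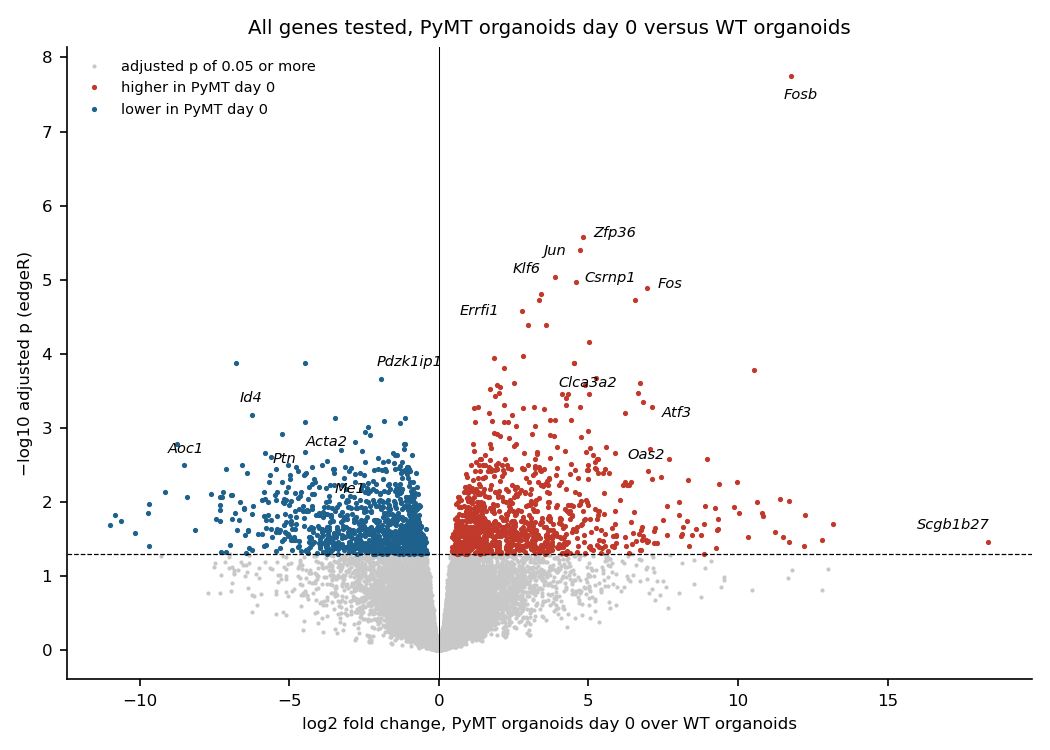
Each point is 1 of the 18698 genes tested; the x axis is the log2 fold change of PyMT organoids at day 0 over WT organoids and the y axis is −log10 of the edgeR adjusted p, with the dashed line at 0.05. Fosb, Zfp36, Jun and Klf6 stand at the top among the 1035 higher genes, while the 1072 lower genes spread to the left without a gene of like significance.

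Genes were grouped in 40 lists of known pathways, complexes and cell type markers. Among all genes tested 5.54% were higher and 5.73% lower. The lists with the largest share of higher members were erythroid genes (5 of 5 tested), the interferon response (19 of 25), immediate early transcription factors (17 of 25), heat shock chaperones (8 of 16), MHC class II (4 of 8), NF-kB and inflammatory cytokines (10 of 22) and secreted gland proteins (7 of 16). Lower members made up the largest shares among cytosolic ribosomal proteins (19 of 26), hormone sensing luminal genes (6 of 13), basal and myoepithelial genes (8 of 22) and hypoxia and glycolysis genes (7 of 28). No member passed the test among DNA replication genes (23 tested), mitosis genes (24), oxidative phosphorylation genes (22), matrix proteases and their inhibitors (21), skeletal muscle genes (13) or mast cell and eosinophil genes (4), although 5464 genes in all had an unadjusted p under 0.05. DESeq2 called 1 lower DNA replication gene, 5 lower skeletal muscle genes and 1 higher and 5 lower genes of the protease list, and none of the mitosis, oxidative phosphorylation or mast cell lists. With only the 6 libraries compared, 9 skeletal muscle, 10 protease list, 1 DNA replication and 1 oxidative phosphorylation gene were lower. In that fit 1 protease list gene and 2 oxidative phosphorylation genes were higher. Of 16484 genes then tested, 2794 were higher and 2817 lower. Since the libraries are of mixed cells, fewer cells of a type and less RNA per cell cannot be told apart in any list.

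**Figure D2:**
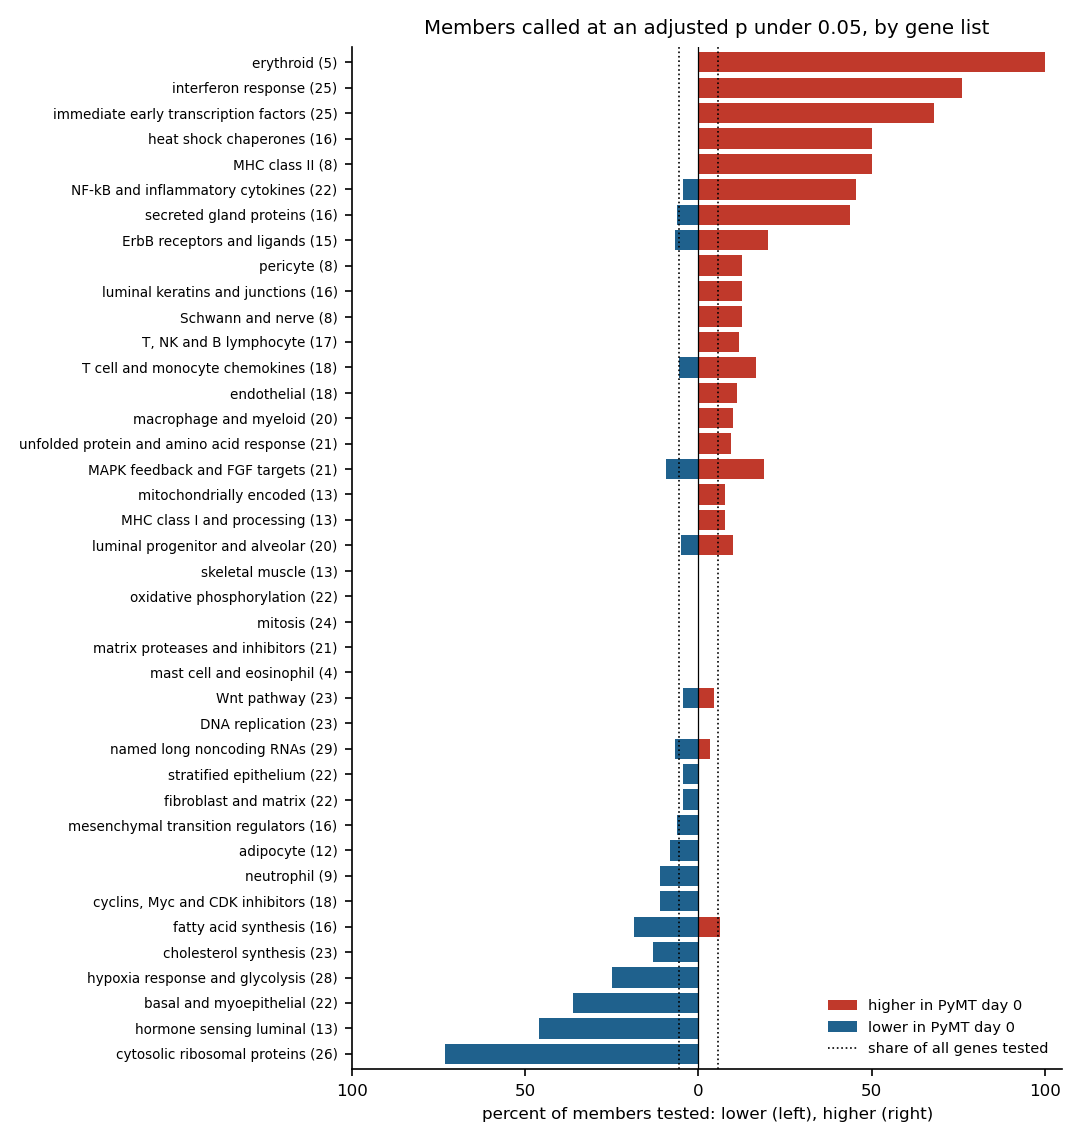
Bars give the percent of each list's tested members (number in brackets) that were higher (right) or lower (left) in PyMT organoids at day 0 than in WT organoids at an adjusted p under 0.05, and the dotted lines mark the share of all genes tested, 5.54% higher and 5.73% lower. Interferon and immediate early genes stand among the lists with the most higher members, and ribosomal protein genes have the largest share of lower members.

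Immediate early genes were higher in PyMT day 0 organoids. Of 25 genes tested, 17 passed the test and none was lower, against 5.54% of all genes higher, with a median log2 fold change of 3.41. The 25 genes together held 1.67 to 2.52% of the tested counts of a day 0 library and 0.154 to 0.201% of those of a WT library. Leaving out any of the 6 libraries gave 15 to 18 higher members, and 15 of the 17 called genes stayed called under all 12 alternative settings.

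Fosb (ENSMUSG00000003545.2, chr7:19302696-19310051, minus strand; positions here and below are GRCm38) encodes an AP-1 subunit and had 1647, 2953 and 2365 CPM in the PyMT day 0 libraries, against 0.671, 0.726 and 0.553 CPM in the WT libraries. In the fit this was a log2 fold change of 11.79 ± 0.59 (SE) with an edgeR adjusted p of 1.76e-08, the smallest of all genes. Its relative Fos (ENSMUSG00000021250.10, chr12:85473890-85477273, plus strand) reached 3685, 4825 and 5238 CPM at day 0 and 26.9, 35.8 and 46.5 CPM in WT, a log2 fold change of 6.98 ± 0.61 (edgeR adjusted p = 1.30e-05). Every day 0 library was above every WT library for both genes, and day 0 replicate 1 was the lowest of its group. Jun (ENSMUSG00000052684.4, chr4:95049034-95052222, minus strand), the main dimer partner of the Fos proteins, had 1607, 2421 and 2483 CPM at day 0 against 77.5, 83.2 and 83.8 CPM in WT (log2 fold change 4.74 ± 0.36, edgeR adjusted p = 4.00e-06). The day 0 values of Jun were again lowest in replicate 1, and the WT values lay within a narrow band. Junb (log2 fold change 3.22) and Jund (2.46) were also higher, whereas Fosl1 (0.93, edgeR adjusted p = 0.243) and Fosl2 (0.88, edgeR adjusted p = 0.0781), which encode later Fos relatives, did not pass the test. Atf3, a stress-induced factor that also binds AP-1 and CRE sites, had 672, 1316 and 883 CPM at day 0 and 5.99, 6.53 and 8.21 CPM in WT (log2 fold change 7.11 ± 0.94, edgeR adjusted p = 0.000512). Atf3 was highest in day 0 replicate 2, and no WT library came near the lowest day 0 value.

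Per kilobase of exon, Fos was the most abundant AP-1 transcript of the day 0 libraries at 1948 ± 342 CPM per kb (SD, n = 3), followed by Jun at 681 ± 153, Junb at 470 ± 139, Atf3 at 444 ± 153, Fosb at 372 ± 105 and Jund at 288 ± 83.5 CPM per kb. From Jun to Jund each neighbouring pair in that order differed by less than the sum of its SDs, while Fos was above Jun by more than both SDs. In WT libraries the order was different: Jund (52.2 ± 1.46 CPM per kb) and Junb (50.6 ± 11.7) were the highest of these genes and Fosb (0.104 ± 0.0141) the lowest.

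Zfp36 (ENSMUSG00000044786.5, chr7:28376784-28380253, minus strand) encodes tristetraprolin, which destabilises AU-rich mRNAs of cytokines and of immediate early genes, and had 1527, 1789 and 2738 CPM at day 0 against 56.6, 66.9 and 91.5 CPM in WT (log2 fold change 4.82 ± 0.35, edgeR adjusted p = 2.64e-06). Klf6, a zinc finger factor induced on injury, had 968, 1738 and 1107 CPM at day 0 against 71.8, 97.8 and 90.1 CPM in WT (log2 fold change 3.88 ± 0.32, edgeR adjusted p = 9.09e-06). Csrnp1, a nuclear factor of the same early response, had 103, 204 and 168 CPM at day 0 against 4.91, 6.06 and 9.01 CPM in WT (log2 fold change 4.57 ± 0.39, edgeR adjusted p = 1.06e-05). These 3 genes did not overlap between the groups. Zfp36, Jun and Csrnp1 each share exonic positions with a gene on the opposite strand, and since the strand setting of the counting is not stated their reads cannot be told from those of that neighbour. Other higher members were the zinc finger factor Egr1 (4.32), the orphan nuclear receptors Nr4a1 (4.21), Nr4a2 (2.64) and Nr4a3 (3.67), Ier2 (3.40), Klf2 (4.13), Maff (2.90) and the antiproliferative factor Btg2 (4.25), all as log2 fold changes. Nr4a2 and Nr4a3 lost the call under at least 1 alternative. Myc, itself an early response gene, went the other way without passing the test, with 62.4, 84.4 and 74.2 CPM at day 0 and 101, 107 and 103 CPM in WT (log2 fold change -0.49 ± 0.37, edgeR adjusted p = 0.394).

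**Figure D3:**
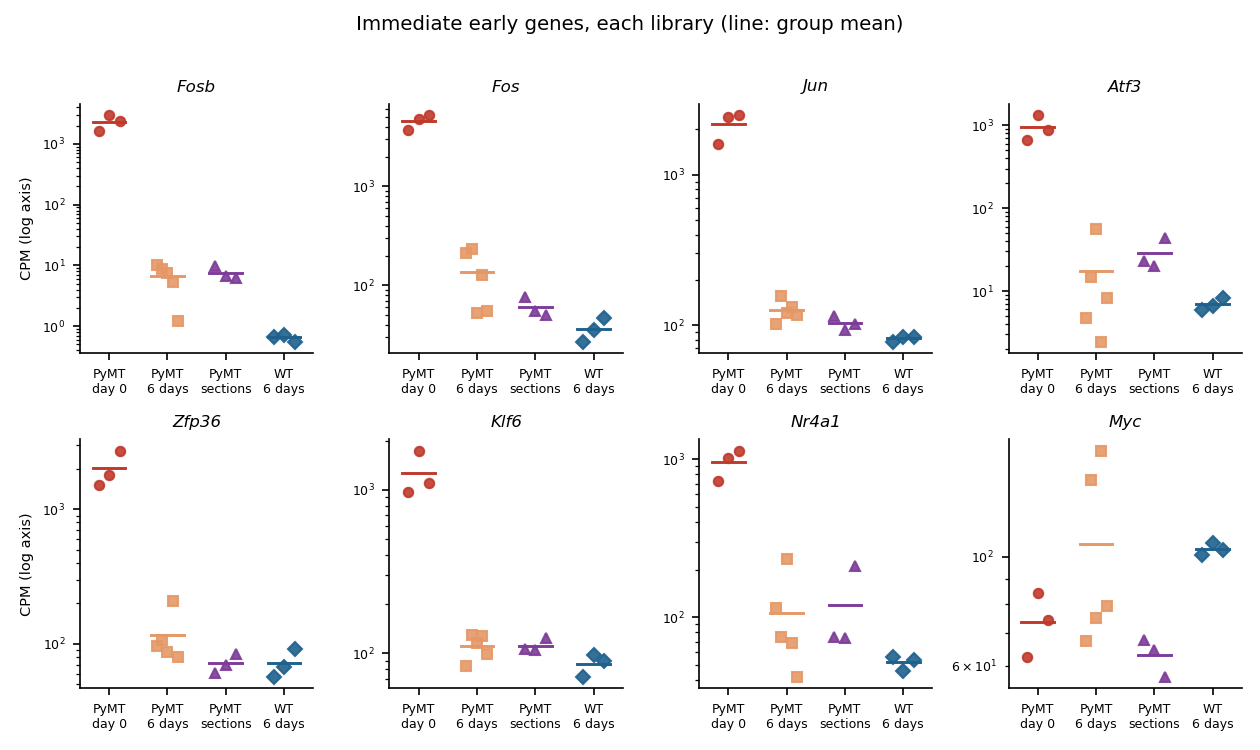
CPM (log axis) of 7 immediate early genes and Myc in each library of PyMT organoids at day 0, PyMT organoids after 6 days, PyMT tumor sections and WT organoids after 6 days; lines are group means. For the 7 immediate early genes the 3 day 0 libraries lie above every library of the other groups, and for Myc they do not.

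The same genes were compared with the other 2 kinds of PyMT sample. Against PyMT organoids after 6 days, 17 of the 25 were higher at day 0 and none lower, where 4.12% of all genes were higher and 4.1% lower (8.22% in either direction). The count was 15 when the shared replicate number entered the model as a block, and 19 without the 2 libraries that stood apart. Against tumor sections, which were frozen without organoid preparation, 17 of the 25 were higher at day 0 and none lower, where 80 genes (0.428%) were higher among all tested and 3 (0.016%) lower, 0.444% in all. Without the libraries that stood apart it was 20. Of the 6 largest rises over tumor sections, 4 were Fosb, Fos, Atf3 and Zfp36, and the other 2 were the neutrophil chemokine Cxcl2 and the cytokine signalling inhibitor Socs3. Fosb had 9.82, 6.63 and 6.14 CPM in the tumor sections and 1.22 to 10.04 CPM in the 6 day PyMT libraries, so that the day 0 level exceeded the sections by 8.26 ± 0.51 and the cultured organoids by 8.74 ± 0.44 on the log2 scale (edgeR adjusted p = 4.53e-07 and 2.21e-08). Between 6 day PyMT organoids and WT organoids, both cultured, 1.4% of genes were higher and 2.49% lower (3.89% in all), and the log2 difference in Fosb was 3.04 ± 0.41 (edgeR adjusted p = 0.00144). Dusp1, a phosphatase that switches off MAP kinases, was also highest at day 0, with 596, 758 and 952 CPM at day 0, 9.03 to 60.98 CPM in 6 day PyMT organoids, 25.5 to 58.3 CPM in sections and 6.69, 7.71 and 10.2 CPM in WT organoids.

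Immediate early promoters are known to carry serum response elements (CArG boxes) and cAMP response elements (CRE, TGACGTCA), and the windows of 250 bases before to 50 after each RefSeq gene start (GRCm38.p6) were searched for both on both strands. A CArG box is CC, then any 6 of A or T, then GG. RefSeq windows were at hand for 20 of the 25 genes (29 windows). A CArG box was found for 2 genes, Egr2 and Zfp36, and a CRE for 2, Btg2 and Maff, while 1.63% and 1.79% of all 32851 windows held these motifs. The AP-1 site (TGACTCA or TGAGTCA), with 5.20% of all windows, was found for Csrnp1 alone. Zfp36 and Btg2 are shown as 1 called gene for each of the 2 motifs, as the 180 bases before the start, 5′ to 3′ on the gene's strand, with the match in capitals.
Zfp36 (chr7:28379229-28379408, minus strand): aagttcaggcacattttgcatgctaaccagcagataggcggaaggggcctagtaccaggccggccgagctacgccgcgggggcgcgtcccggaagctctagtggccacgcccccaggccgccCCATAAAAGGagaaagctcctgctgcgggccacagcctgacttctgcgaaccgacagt
Btg2 (chr1:134079156-134079335, minus strand): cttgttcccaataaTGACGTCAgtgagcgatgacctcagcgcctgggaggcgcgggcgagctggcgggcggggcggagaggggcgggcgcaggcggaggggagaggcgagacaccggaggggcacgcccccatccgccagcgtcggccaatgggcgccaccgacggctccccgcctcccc
In Zfp36 the CArG box began 58 bases before the RefSeq start, and in Btg2 the CRE began 166 bases before it. The RefSeq start of Zfp36 lies inside the gene interval given above, which came from GENCODE, so the annotations differ on where the gene starts. Absence of a match concerns these letters in these windows alone.

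Heat shock chaperones, which refold proteins after heat or other proteotoxic stress, were higher in PyMT day 0 organoids for 8 of 16 members, with none lower and a median log2 fold change of 0.98. Among all genes 5.54% were higher. Hspa1a, the inducible Hsp70, had 48.3, 252 and 168 CPM at day 0 against 5.78, 4.91 and 5.26 CPM in WT (log2 fold change 4.88 ± 0.59, edgeR adjusted p = 0.000264), and its near-identical copy Hspa1b had 268, 1407 and 814 CPM against 43.8, 41.9 and 44.2 CPM (log2 fold change 4.26 ± 0.54, edgeR adjusted p = 0.000399). Reads of these 2 copies could have been split or dropped in counting. The co-chaperone Dnajb1 had 136, 616 and 272 CPM at day 0 and 52.7, 52.3 and 66.9 CPM in WT (log2 fold change 2.57 ± 0.39, edgeR adjusted p = 0.00165). Hsph1, an Hsp110 nucleotide exchange factor, had 97.1, 598 and 107 CPM at day 0 and 46.9, 42.4 and 29.2 CPM in WT (log2 fold change 2.76 ± 0.54, edgeR adjusted p = 0.00683). Day 0 replicate 2 was the highest of its group for all 16 members, and its summed level of 13780 CPM compared with 5966 and 7928 CPM in the other 2 day 0 libraries and 4233 to 4729 CPM in WT. Without day 0 replicate 2, 4 members were called. The heat shock element, searched as GAA, any 2 bases, TTC, any 2 bases and GAA, was present in 0.603% of all promoter windows and was found for Hsph1, Hspd1 and Hspe1 among the 12 members with a window, and of these Hspd1 and Hspe1, whose starts overlap on opposite strands, did not pass the test. Against 6 day PyMT organoids 9 members were higher (4 with the replicate block), and against tumor sections 3 were. Among all genes 4.12% were higher than in 6 day PyMT organoids (645 of 18698 genes with the block) and 0.428% than in tumor sections.

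Genes of the NF-kB and inflammatory cytokine list were higher for 10 of 22 members and lower for 1, with a median log2 fold change of 1.09. Among all genes 5.54% were higher and 5.73% lower. Nfkbia, the inhibitor that NF-kB itself induces, had 335, 338 and 542 CPM at day 0 against 52.8, 52.4 and 68.6 CPM in WT (log2 fold change 2.81 ± 0.30, edgeR adjusted p = 0.000106). Tnfaip3, the ubiquitin-editing inhibitor A20, had 81.8, 128 and 138 CPM against 15.4, 17.1 and 16.4 CPM (log2 fold change 2.83 ± 0.38, edgeR adjusted p = 0.000536). Nfkbiz, a nuclear cofactor of NF-kB, had 316, 428 and 442 CPM against 45.1, 26.3 and 32.6 CPM (log2 fold change 3.51 ± 0.47, edgeR adjusted p = 0.000548). For these 3 genes the lowest day 0 library stood well above the highest WT library. Among secreted factors, the neutrophil chemokine Cxcl2 reached 24.8, 27.3 and 20.2 CPM at day 0 and 0.697, 0.534 and 0.799 CPM in WT (log2 fold change 5.15 ± 0.83, edgeR adjusted p = 0.00232). Log2 fold changes of the others were 5.56 for Il1b, 5.24 for Il6, 3.59 for Il1a, 3.49 for Tnf, 3.14 for Lif and 3.08 for Il23a. In absolute terms they were low, with Il6 at 1.25, 3.74 and 2.59 CPM and Il1b at 11.3, 14.8 and 11.1 CPM in the day 0 libraries and both under 0.5 CPM in each WT library. Cxcl5, another neutrophil chemokine, was the member that was lower, at 1.35, 0.152 and 0.923 CPM at day 0 and 15.3, 10.8 and 10.6 CPM in WT (log2 fold change -3.91 ± 1.06, edgeR adjusted p = 0.029). It lost the call in each of the 6 fits that left out a library. Against tumor sections 7 members were higher at day 0, and against 6 day PyMT organoids 8 were higher and 1 lower (6 and none with the replicate block). Among all genes 0.428% were higher than in tumor sections, and 4.12% were higher and 4.1% lower than in 6 day PyMT organoids. Of 18 members of a further chemokine list, Ccl3, Ccl4 and Cxcl10 were higher than in WT and Cxcl15 was lower (0.572, 0.303 and 0.0710 CPM at day 0 against 13.6, 16.5 and 20.6 CPM). Without WT replicate 1 and without WT replicate 2 the 3 rises lost the call, and Cxcl15 lost it without day 0 replicate 2, day 0 replicate 3 or WT replicate 3.

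Interferon-stimulated genes, which cells switch on after type I or type III interferon, were higher for 19 of 25 members, with none lower and a median log2 fold change of 2.34. Among all genes 5.54% were higher. Oasl1, an antiviral protein of the oligoadenylate synthetase family, had 19.7, 15.6 and 11.2 CPM at day 0 against 0.723, 0.897 and 1.57 CPM in WT (log2 fold change 3.87 ± 0.54, edgeR adjusted p = 0.000785). Gbp2, an interferon-induced GTPase, had 53.1, 33.4 and 34.2 CPM against 8.67, 10.03 and 10.3 CPM (log2 fold change 2.06 ± 0.31, edgeR adjusted p = 0.00127). Oas2, which makes the activator of RNase L, had 97.1, 132 and 66.1 CPM against 0.387, 1.67 and 2.95 CPM (log2 fold change 5.89 ± 0.94, edgeR adjusted p = 0.00217), and its relative Oas1a 69.8, 52.6 and 36.6 CPM against 2.27, 4.80 and 10.2 CPM (log2 fold change 3.20 ± 0.55, edgeR adjusted p = 0.00328). None of these 4 genes overlapped between the groups. Within the groups the libraries kept an order: day 0 replicate 1 was the highest for 22 of the 25 members, and WT replicate 1 was the lowest for 24. The summed level was 1030 to 1676 CPM at day 0 and 268 to 442 CPM in WT. Leaving out WT replicate 1 reduced the called members to 11, and 11 genes stayed called under all 12 alternatives. The 19 genes included the regulators Irf7 and Stat2, and the effectors Isg15, Ifit3, Rsad2, Mx1, Mx2, Usp18 and Cmpk2.

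The interferon-stimulated response element was searched as a pair of GAAA separated by any 2 bases, on both strands in the same promoter windows. It was found in 11 of 22 windows of 19 members, for Ddx58, Gbp2, Gbp3, Ifih1, Ifit1, Ifit3, Isg15, Oas1a, Oas3, Rsad2 and Stat2, and in 3.44% of all windows. Of these 11 genes, Ddx58, Ifih1 and Ifit1 did not pass the test at day 0. The 180 bases before the start are shown for 4 called genes that differ in the number and place of the matches, which are in capitals and may overlap (5′ to 3′ on the gene's strand, where TTTC is GAAA on the other strand).
Isg15 (chr4:156200819-156200998, minus strand): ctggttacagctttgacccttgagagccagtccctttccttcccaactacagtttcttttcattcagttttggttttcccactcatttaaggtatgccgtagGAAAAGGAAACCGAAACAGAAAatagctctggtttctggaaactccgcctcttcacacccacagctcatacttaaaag
Ifit3 (chr19:34583349-34583528, plus strand): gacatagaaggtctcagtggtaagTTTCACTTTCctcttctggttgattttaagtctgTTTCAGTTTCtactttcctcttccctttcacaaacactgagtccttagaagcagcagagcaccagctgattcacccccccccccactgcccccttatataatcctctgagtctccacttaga
Rsad2 (chr12:26456453-26456632, minus strand): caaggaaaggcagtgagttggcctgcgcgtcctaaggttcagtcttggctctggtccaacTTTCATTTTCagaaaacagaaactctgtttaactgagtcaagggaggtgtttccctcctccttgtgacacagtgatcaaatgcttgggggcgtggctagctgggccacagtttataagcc
Oas3 (chr5:120777660-120777839, minus strand): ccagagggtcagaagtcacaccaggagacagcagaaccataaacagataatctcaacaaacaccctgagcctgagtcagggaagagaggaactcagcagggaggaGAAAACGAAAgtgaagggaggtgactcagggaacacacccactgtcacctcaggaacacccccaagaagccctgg
Isg15 held 3 overlapping matches, Ifit3 held 2, and Rsad2 and Oas3 held 1 each, the nearest beginning 66, 122, 120 and 75 bases before the start. Isg15, a ubiquitin-like protein, had 65.7, 52.2 and 35.9 CPM at day 0 against 5.06, 9.52 and 15.8 CPM in WT. Ifit3, which binds foreign RNA with its relatives, had 48.9, 21.6 and 11.5 CPM against 0.465, 1.69 and 3.81 CPM. Rsad2 (viperin) had 91.99, 82.3 and 21.1 CPM against 0.542, 2.92 and 2.80 CPM, and Oas3 14.8, 6.67 and 6.64 CPM against 0.439, 0.448 and 0.984 CPM. Day 0 replicate 1 was the highest of its group for all 4 genes. A match is a description of the letters and was not tested as a binding site.

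Against tumor sections no interferon member differed from day 0 organoids at an adjusted p under 0.05 in edgeR, with or without the libraries that stood apart, and the list's median log2 difference was -0.07. Against 6 day PyMT organoids 7 members were higher at day 0, where 771 of 18698 genes were. Without the libraries that stood apart 17 members were, where 3051 of 18591 genes tested were higher. The antigen-presenting MHC class II genes H2-Aa, H2-Ab1 and Cd74 and their activator Ciita were higher than in WT. Cd74, the invariant chain, had 82.7, 131 and 176 CPM at day 0 against 4.36, 1.81 and 5.41 CPM in WT (log2 fold change 5.08 ± 1.33, edgeR adjusted p = 0.0257), and Ciita had 3.79, 6.82 and 6.11 CPM against 1.32, 1.26 and 1.14 CPM (log2 fold change 2.17 ± 0.39, edgeR adjusted p = 0.00409). Of the 4, Ciita kept the call under all alternatives, and 1 to 3 were called with a library left out. The other class II genes named here were lowest in day 0 replicate 1 and highest in replicate 3, the reverse of most interferon members. Macrophages also express these genes: macrophage and myeloid markers summed to 546 to 761 CPM at day 0 and 209.5 to 346 CPM in WT, and their part in the result was not tested. Among 13 MHC class I and processing genes 1, the class I activator Nlrc5, was higher (11.6, 6.27 and 10.7 CPM at day 0, 0.955, 1.07 and 1.57 CPM in WT). With 5.54% of all genes higher than in WT, this single call is not a result about the class I list.

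In the epithelium, members of the basal and hormone-sensing lists were lower in PyMT day 0 organoids. Luminal keratins and junction genes went both ways around a median near the WT level. Of 22 basal and myoepithelial genes 8 were lower and none higher (5.73% of all genes lower), with a median log2 fold change of -2.51, and for 20 of the 22 every day 0 library was below every WT library (25.4% of all genes). The 8 calls became 3 to 6 with 1 library left out (3 without day 0 replicate 1), 5 with the replicate block, 12 in DESeq2 and 15 without the libraries that stood apart, and Acta2, Cdh3 and Cnn1 were the members that kept the call throughout. Acta2, smooth muscle actin, had 24.9, 53.8 and 57.96 CPM at day 0 against 692, 477 and 668 CPM in WT (log2 fold change -3.75 ± 0.62, edgeR adjusted p = 0.00275). Cdh3, P-cadherin of the basal layer, had 3.33, 4.90 and 7.42 CPM against 55.7, 68.5 and 59.6 CPM (log2 fold change -3.55 ± 0.62, edgeR adjusted p = 0.00357). Cnn1, a contractile calponin, had 2.39, 2.53 and 3.62 CPM against 62.8, 37.9 and 58.99 CPM (log2 fold change -4.22 ± 0.80, edgeR adjusted p = 0.00564), and the oxytocin receptor gene Oxtr 3.33, 7.03 and 10.01 CPM against 124, 155 and 103 CPM (log2 fold change -4.22 ± 0.94, edgeR adjusted p = 0.0124). All 4 were far apart between the groups, and Oxtr lost the call without day 0 replicate 1 and without day 0 replicate 2. The basal keratins Krt5 (31.3, 56.9 and 60.2 CPM at day 0, 849, 954 and 779.6 CPM in WT) and Krt14 (60.3, 167 and 111 CPM, 1173, 795 and 610.1 CPM) did not pass the test (edgeR adjusted p = 0.124 and 0.32).

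Cultured PyMT organoids differed from day 0 in both directions in this list. Acta2 and Cnn1 were 14 to 41.4 and 0.785 to 6.73 CPM in the 6 day PyMT libraries, and the test of day 0 against them did not pass the threshold (edgeR adjusted p = 0.252 and 1). The laminin chain gene Lama3 (4.85 to 303 CPM after 6 days) and Cdh3 were lower at day 0 than in 6 day PyMT organoids, with log2 differences of -3.94 ± 1.07 and -2.67 ± 0.57 (edgeR adjusted p = 0.0363 and 0.0151). The contractile genes Myh11 and Tagln were higher at day 0, by 2.56 ± 0.65 and 1.96 ± 0.55 (edgeR adjusted p = 0.0285 and 0.0404). With the replicate block no member of the list was called, with edgeR adjusted p between 0.0808 for Cdh3 and 0.182 for Lama3 among these 4 genes. Once the libraries that stood apart had been left out, 3 members were called higher and 12 lower. Over all genes 3051 were then higher and 2650 lower, of 18591 tested. Against tumor sections no basal gene differed in edgeR.

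Hormone-sensing luminal genes were lower for 6 of 13 members and higher for none, with a median log2 fold change of -3.36. Among all genes 5.73% were lower. With 1 library left out 3 to 5 were called (3 without day 0 replicate 2). Ptn, Areg and Pgr kept the call under all 12 alternatives, while the luminal transcription factor gene Foxa1 lost it in 8. Ptn, the growth factor pleiotrophin, had 7.79, 18.4 and 7.42 CPM at day 0 against 204, 267 and 256 CPM in WT (log2 fold change -4.43 ± 0.80, edgeR adjusted p = 0.00409). Areg, the EGF receptor ligand through which estrogen drives duct growth, had 5.04, 3.29 and 1.24 CPM against 45.7, 62.6 and 84.4 CPM (log2 fold change -4.34 ± 0.84, edgeR adjusted p = 0.00622). The progesterone receptor gene Pgr had 1.66, 4.75 and 1.77 CPM against 48.7, 77.3 and 71.4 CPM (log2 fold change -4.59 ± 0.92, edgeR adjusted p = 0.00733). Greb1, an estrogen receptor cofactor, had 0.0520, 0.253 and 0.994 CPM against 14.8, 14 and 14.8 CPM (log2 fold change -5.01 ± 1.08, edgeR adjusted p = 0.011), and lost the call without day 0 replicate 2. The groups were far apart for all 4 genes. The estrogen receptor gene Esr1 itself had 7.48, 3.69 and 8.55 CPM at day 0 and 10.1, 18.5 and 14.3 CPM in WT and did not pass the test (edgeR adjusted p = 0.0918). Against tumor sections no hormone-sensing member was called in edgeR, and against 6 day PyMT organoids none was with all libraries and 1 was lower without those that stood apart.

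Among 16 luminal keratins and junction genes, Cldn3 (308, 395 and 388 CPM at day 0 against 149, 114 and 157 CPM in WT, edgeR adjusted p = 0.0181) and Cldn4 (302, 624 and 329.9 CPM against 63.5, 57.4 and 79.5 CPM, edgeR adjusted p = 0.0384), both tight junction claudins, were higher and none was lower, with a median log2 fold change of 0.21. Cldn3 lost the call in 4 and Cldn4 in 8 of the 12 alternatives. Log2 fold changes of the 16 genes ran from -2.52 to 2.65. Every day 0 library was above every WT library for 6 members and below for 3 (23.4% and 25.4% of all genes). With only the 6 libraries compared 4 members were higher and 2 lower. Of 20 luminal progenitor and alveolar genes the milk protein gene Csn2 and the milk fat droplet enzyme gene Xdh were higher, and Aldh1a3, a retinaldehyde dehydrogenase of luminal progenitors, was lower (15.1, 12.6 and 25.9 CPM against 271, 189 and 171 CPM). With 1 library left out 0 to 2 of this list were higher, and 7 were in DESeq2 and 8 without the libraries that stood apart. In those last settings 1878 of 18698 and 2374 of 18591 genes were higher. In the main fit 5.54% of all genes were higher and 5.73% lower, so the few calls of both luminal lists are not a result about those lists. Stratified epithelium genes had a median log2 fold change of -3.37 over 22 tested, yet the desmosomal cadherin Dsc3 alone was called (0.312, 1.62 and 0.603 CPM at day 0 against 45.9, 64.96 and 40.6 CPM in WT, edgeR adjusted p = 0.0269), and it lost the call whenever a library was left out. That list had 6 lower members in DESeq2, 7 once the libraries that stood apart had been left out and 16 with only the 6 libraries compared. In these settings 1658 of 18698, 2244 of 18591 and 2817 of 16484 genes were lower.

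**Figure D4:**
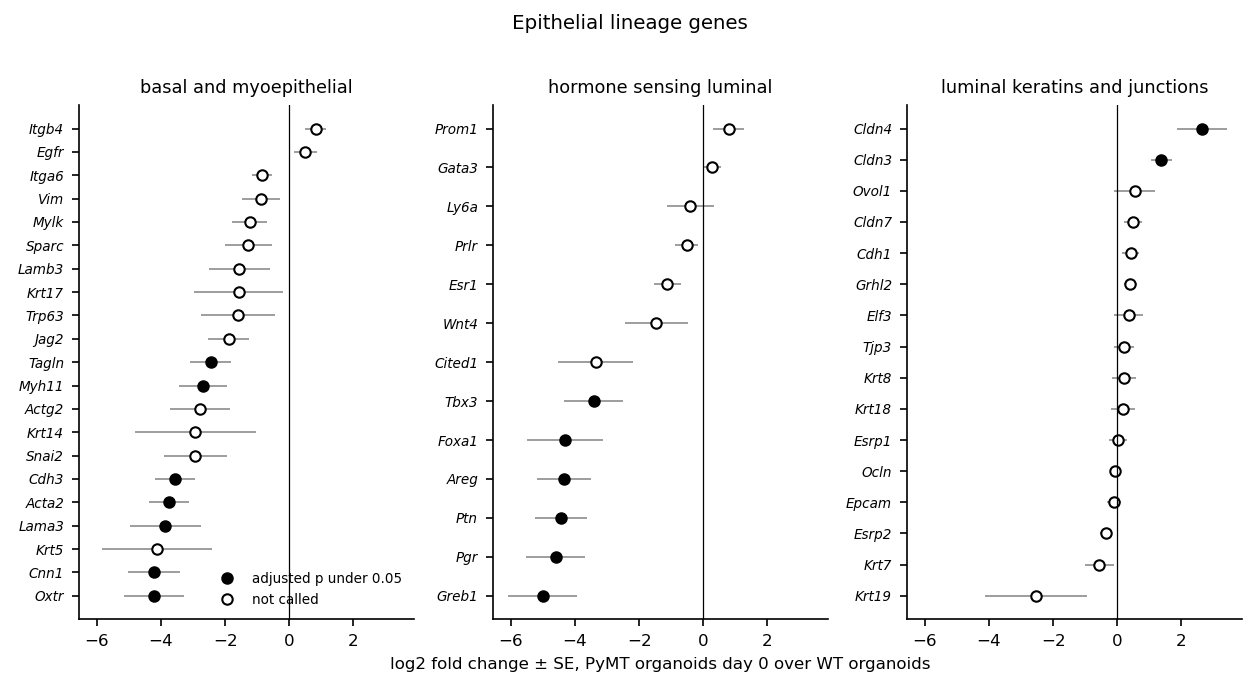
Log2 fold change (x axis, ± SE) of PyMT organoids at day 0 over WT organoids for the members of 3 epithelial lists (21 of the 22 basal members, and all tested members of the other 2 lists); filled points have an adjusted p under 0.05. Basal and hormone-sensing genes lie mostly left of 0 with 7 and 6 calls shown, and luminal keratins and junction genes lie on both sides of 0.

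Some genes of sugar and lipid metabolism were lower in PyMT day 0 organoids, where 5.73% of all genes were lower and 5.54% higher. Of 28 hypoxia and glycolysis genes 7 were lower and none higher, with a median log2 fold change of -0.85. Pgam1, phosphoglycerate mutase, had 122, 104 and 61.5 CPM at day 0 against 269.9, 275 and 369 CPM in WT (log2 fold change -1.67 ± 0.43, edgeR adjusted p = 0.0245). Gapdh, the glyceraldehyde phosphate dehydrogenase gene, had 1262, 828 and 648 CPM against 2168, 2338 and 3579 CPM (log2 fold change -1.56 ± 0.42, edgeR adjusted p = 0.0287). The lactate exporter Slc16a3 had 17.2, 22.8 and 6.11 CPM against 103, 124 and 172 CPM (log2 fold change -3.12 ± 0.85, edgeR adjusted p = 0.0299), and the mitophagy gene Bnip3, a HIF target, 92.9, 49.4 and 17.7 CPM against 224, 356 and 530.4 CPM (log2 fold change -2.79 ± 0.80, edgeR adjusted p = 0.0363). Groups did not overlap for these 4 genes, though spread within them was wide: day 0 replicate 3 was lowest for 22 of the 28 members and WT replicate 3 highest for 25. No member kept the call under all alternatives, and leaving out any of the 6 libraries left 0 or 1 of the 7, while 11 were lower in DESeq2 and 13 without the libraries that stood apart. Against 6 day PyMT organoids 13 members were lower at day 0 (7 with the block and 23 without the libraries that stood apart). Over all genes 766 were lower, 352 with the block and 2650 of 18591 without those libraries. Against tumor sections no member was called with all libraries, and 3 were higher without those that stood apart.

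Of 23 cholesterol synthesis and uptake genes 3 were lower than in WT, with a median log2 fold change of -0.92, among them Fdft1 (squalene synthase) and the cholesterol transfer protein gene Stard4. Fdft1 had 45.9, 42.1 and 32.7 CPM at day 0 against 101, 101 and 99.2 CPM in WT. With any of the 6 libraries left out 1 member was called lower. The count was 5 in DESeq2, 14 without the libraries that stood apart and 17 with only the 6 libraries compared. Over all genes 1072 were lower in the main fit, 1658 in DESeq2, 2244 without those libraries and 2817 of 16484 with only the 6. Against 6 day PyMT organoids 13 were lower (6 with the block and 21 without the libraries that stood apart), where the counts over all genes were 766, 352 and 2650. Fatty acid synthesis genes were not lower as a list. The median log2 fold change of the 16 was -0.04, and summed levels overlapped (4453 to 6164 CPM at day 0, 5180 to 5930 CPM in WT). Among them Me1 (malic enzyme), Acsl3 (acyl-CoA synthetase) and Fads1 (a desaturase) were lower, while Srebf1, the transcription factor of this pathway, was higher. Me1 had 166, 124 and 154 CPM at day 0 against 628, 864 and 1019 CPM in WT (log2 fold change -2.50 ± 0.45, edgeR adjusted p = 0.00424). Srebf1 had 1211, 1874 and 2260 CPM against 730.0, 451 and 471 CPM (log2 fold change 1.70 ± 0.29, edgeR adjusted p = 0.00341). Srebf1, Me1 and Acsl3 kept their calls under all 12 alternatives.

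Cytosolic ribosomal protein genes were lower for 19 of 26 members and higher for none, with a median log2 fold change of -0.81. Among all genes 5.73% were lower. Rpl13 had 599.9, 729 and 646 CPM at day 0 against 1423, 1367 and 1889 CPM in WT (log2 fold change -1.25 ± 0.22, edgeR adjusted p = 0.00382), and Rps3 had 1116, 1248 and 1217 CPM against 1995, 1842 and 2492 CPM (log2 fold change -0.82 ± 0.18, edgeR adjusted p = 0.011). The fold changes of Rpl23 and Rpl32 were -0.91 and -0.91. Summed over the 26 genes the level was 21640 to 24030 CPM at day 0 and 35480 to 47160 CPM in WT. The count of 19 fell to 1 without WT replicate 3, whose summed level was the highest, and ranged up to 12 without another library, and it was 10 with the replicate block. Ribosomal protein genes have many processed pseudogenes, and how reads were shared with these is not stated.

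Proliferation genes showed no difference that passed the test. Among 24 mitosis genes the median log2 fold change was -0.12 and among 23 DNA replication genes 0.03, with summed levels of 1090 to 1570 CPM at day 0 and 1076 to 1654 CPM in WT for mitosis. Compared with 6 day PyMT organoids, 7 of the 24 mitosis genes were lower at day 0. The count became 2 with the replicate block and 21 without the libraries that stood apart. Over all genes 766 were lower, 352 with the block and 2650 of 18591 without those libraries. Of 18 cyclins, Myc family genes and CDK inhibitors, Mycl (0.987, 1.16 and 1.24 CPM at day 0 against 7.33, 11.5 and 11.1 CPM in WT, edgeR adjusted p = 0.00341) and the inhibitor Cdkn2b (2.50, 2.63 and 4.37 CPM against 23.5, 22.7 and 23.02 CPM, edgeR adjusted p = 0.0238) were lower. The chaperone Hspa5 (BiP) of the endoplasmic reticulum was higher, at 1452, 2377 and 1645 CPM against 714, 619.9 and 630.1 CPM (log2 fold change 1.48 ± 0.27, edgeR adjusted p = 0.00465), with Sdf2l1 the only other of 21 unfolded protein response genes. Over all genes 5.54% were higher and 5.73% lower. With 1 library left out 1 or 2 unfolded protein response genes were higher and 1 of the cyclin list was lower. Cdkn2b lost the call in each of the 6 fits that left out a library, while Mycl and Hspa5 kept it in all 12 alternatives. Without the libraries that stood apart 7 unfolded protein response genes were higher and 5 of the cyclin list lower, where 2374 and 2244 of 18591 genes were.

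Genes of growth factor signalling moved in both directions. Errfi1, the feedback inhibitor of EGF receptors known as Mig6, had 659.7, 933 and 1068 CPM at day 0 against 113, 139 and 137 CPM in WT (log2 fold change 2.77 ± 0.26, edgeR adjusted p = 2.62e-05). The EGF receptor ligands Hbegf (103, 194 and 81.8 CPM against 3.64, 4.46 and 3.63 CPM, log2 fold change 5.01 ± 0.63, edgeR adjusted p = 0.000343) and Egf (30.9, 29.2 and 20.6 CPM against 2.38, 2.41 and 2.80 CPM, log2 fold change 3.41 ± 0.83, edgeR adjusted p = 0.0187) were also higher, whereas the ligand Areg was lower, as given above. Egf lost the call in DESeq2 and whenever a WT library was left out. The receptor gene Erbb2 had 73.7, 77.03 and 102 CPM at day 0 and 90.3, 94.1 and 97.97 CPM in WT, and its log2 fold change of -0.16 ± 0.42 did not pass the test (edgeR adjusted p = 0.838). Of 21 MAP kinase feedback genes and FGF targets, Hbegf, Dusp5, Phlda1 and Spry1 were higher and Spred1 and the FGF receptor gene Fgfr2 lower. Dusp5, an ERK phosphatase, had 94.8, 247 and 242 CPM at day 0 against 6.20, 5.59 and 7.44 CPM in WT (log2 fold change 4.93 ± 0.78, edgeR adjusted p = 0.00209). Fgfr2 had 10.1, 9.76 and 11.4 CPM against 34.98, 40.97 and 30.6 CPM (log2 fold change -1.77 ± 0.55, edgeR adjusted p = 0.0475). Fgfr2 lost the call in 8 of 12 alternatives, among them each of the 6 that left out a library, and without day 0 replicate 2 neither fall was called. Phlda1 lost the call in 4 alternatives, and Dusp5 and Hbegf kept it in all. In the Wnt pathway list (23 tested) the receptor ligase Rnf43 was higher and the ligand Wnt6 lower. With 5.54% higher and 5.73% lower among all genes, single calls in a list of this size are not a result about the pathway. With 1 library left out no Wnt member was lower. In DESeq2, where 1658 of 18698 genes were lower, 7 were. Without the libraries that stood apart, where 2244 of 18591 genes were lower, it was also 7.

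The largest rises included genes of secreted gland proteins, whose levels differed widely between day 0 libraries. Of 16 genes 7 were higher and 1 lower, with a median log2 fold change of 4.73, where 5.54% of all genes were higher and 5.73% lower. Scgb1b27, a secretoglobin, had 290.5, 102 and 3863 CPM at day 0 and no read in WT, so that against a floor of 3 counts over the WT group the mean of the day 0 libraries was at least 55850-fold higher, and at least 7731-fold higher without day 0 replicate 3. Its neighbour Scgb2b27 had 729.8, 674 and 4091 CPM at day 0 and 0.181, 0.213 and 0.184 CPM in WT (log2 fold change 13.18 ± 3.24, edgeR adjusted p = 0.0199). For both, day 0 replicate 3 was far above the other 2. Pip, the prolactin-induced protein, had 179, 0.152 and 355 CPM at day 0 and 0.0258, 0.0427 and 0.0307 CPM in WT, so that day 0 replicate 2 stood close to the WT level. The casein gene Csn2 had 108, 164 and 66.6 CPM at day 0 against 0.129, 0.0214 and 0.0307 CPM in WT (log2 fold change 10.79 ± 2.45, edgeR adjusted p = 0.0138), with replicate 2 the highest this time. Car6, the secreted carbonic anhydrase, had 1364, 379 and 2077 CPM against 2.76, 1.30 and 1.97 CPM, and the mucin Muc4 19.6, 82.4 and 28.8 CPM against 0.0516, 0.171 and 0.0922 CPM. Clca3a2, a calcium-activated chloride channel regulator, was the steadiest at 645, 463 and 784 CPM against 5.27, 5.17 and 8.36 CPM (log2 fold change 6.65 ± 0.83, edgeR adjusted p = 0.000339) and kept the call under all 12 alternatives, as did Wfdc2, an epithelial secretory protein that was lower at day 0 (9.30, 4.20 and 10.4 CPM against 146, 139 and 166 CPM, log2 fold change -4.23 ± 0.73). Leaving out a library reduced the 7 higher members to between 1 and 3, and they were 3 with the block, 10 in DESeq2 and 11 without the libraries that stood apart. In the tumor sections Scgb1b27 ranged over 26.6 to 10370 CPM and Pip over 0.754 to 1570 CPM, and no secreted gland gene differed from day 0 there at the threshold.

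Other genes among the 15 largest rises were the dipeptidyl peptidase-like Dpp10 (118, 0.910 and 35.9 CPM at day 0, and 2 counts in WT), the GABA receptor subunit Gabra4 (39.5, 31.7 and 20.4 CPM at day 0, also 2 counts in WT), the tooth enamel protein gene Amtn (39.7, 2.48 and 37.2 CPM against 0.206, 0 and 0.0307 CPM) and the TNF receptor family member Tnfrsf19 (44.3, 63.8 and 34.4 CPM against 0.258, 0.406 and 0.400 CPM). With so few WT counts Gabra4 was 1725-fold (95% interval 477 to 14250, counting error only) higher at day 0. Gabra4 and Tnfrsf19 kept the call in every alternative, and Dpp10 and Amtn, which were low in day 0 replicate 2, did not. Csprs (13.5, 22.04 and 25.5 CPM at day 0), a component of Sp100-rs on an unplaced scaffold, and the predicted genes Gm16025 (14.5, 14.6 and 12.7 CPM), Gm21718 (37.5, 21.6 and 32.2 CPM) and C130026I21Rik (11.4, 8.14 and 21.6 CPM) had 0, 0, 0 and at most 0.0922 CPM in WT libraries. The first 3 were at least 828-fold, 542-fold and 1205-fold higher against the same floor, with reads pooled over the libraries of a group. Csprs, C130026I21Rik, Gm16025 and AC133103.1 (12.3, 4.40 and 22.8 CPM) come from repeated gene copies, so their separate values are uncertain.

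At the other end, the largest falls held genes of several kinds. The extracellular protease-like Prss35 had 0.0520, 0.556 and 1.99 CPM at day 0 against 59.1, 128 and 216 CPM in WT (log2 fold change -7.20 ± 1.44, edgeR adjusted p = 0.00728). The amine oxidase gene Aoc1 had 0.104, 0 and 0 CPM against 14.3, 12.4 and 11.6 CPM, and with 2 counts at day 0 the WT level was 429.8-fold (95% interval 119 to 3553, counting error only) above it. Id4, an inhibitor of basic helix-loop-helix factors that marks basal cells in the mammary gland, had 0.676, 0.556 and 1.10 CPM against 52.5, 73.8 and 51.7 CPM (log2 fold change -6.23 ± 0.85, edgeR adjusted p = 0.000661). None of these 3 genes overlapped between the groups. The opioid precursor gene Penk had 0.779, 0.657 and 0.603 CPM against 22.3, 52.1 and 31.7 CPM, the basement membrane protein gene Frem2 0.520, 0.910 and 0.923 CPM against 61.2, 76.7 and 38.4 CPM, the HIF family member Hif3a 0.520, 0 and 0.142 CPM against 3.77, 13.8 and 20.8 CPM, and the protease inhibitor gene Pi15 0.208, 0.303 and 1.60 CPM against 33.5, 60.8 and 27.6 CPM. The proton pump subunit Atp6v0a4 (1.56, 1.16 and 0.710 CPM against 183, 110.5 and 115 CPM) and Tmem213 (0.104, 0 and 0.0710 CPM against 14.7, 7.37 and 8.33 CPM) overlap on opposite strands and cannot be told apart without strand. Atp6v0a4 reached 0.388 to 636 CPM in the 6 day PyMT libraries and was lower at day 0 than there too (log2 difference -8.27 ± 1.46, edgeR adjusted p = 0.00605). With the replicate block its adjusted p was 0.036. The aldehyde dehydrogenase gene Aldh3a1 had 0.104, 0.455 and 0.0710 CPM at day 0, 0 to 101 CPM in 6 day PyMT organoids and 29.8, 19.2 and 17.03 CPM in WT, and was lower at day 0 than in both. The lowest 6 day PyMT library was nonetheless below every day 0 library for Aldh3a1. Its call against WT was lost in 6 of 12 alternatives, among them each fit without a day 0 library. Hif3a and Id4 were likewise lower at day 0 than in 6 day PyMT organoids (edgeR adjusted p = 0.0339 and 0.0198), but not with the replicate block (edgeR adjusted p = 0.0777 and 0.0684).

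The most significant falls were smaller and steady. Pdzk1ip1, a small membrane protein of epithelia, had 47.2, 25.98 and 32.8 CPM at day 0 against 155, 102 and 148 CPM in WT (log2 fold change -1.93 ± 0.23, edgeR adjusted p = 0.000217). Ugp2, which makes UDP-glucose, had 76.5, 82.1 and 67.1 CPM against 142, 171 and 186 CPM (log2 fold change -1.14 ± 0.16, edgeR adjusted p = 0.000727). The cell adhesion gene Cadm1 had 30.8, 24.3 and 29.6 CPM against 96.8, 124 and 81.2 CPM (log2 fold change -1.83 ± 0.26, edgeR adjusted p = 0.000805), and the zinc finger gene Zfp397 46.4, 37.5 and 40.2 CPM against 89.7, 110.0 and 105 CPM (log2 fold change -1.30 ± 0.18, edgeR adjusted p = 0.000853). All 4 stayed called under every alternative. Among predicted and antisense genes, E030013I19Rik had 3.48, 3.49 and 6.03 CPM against 60.2, 62.9 and 56.6 CPM, C130021I20Rik 9.46, 2.17 and 3.27 CPM against 63.8, 77.1 and 65.7 CPM, 2610528A11Rik 43.8, 45.4 and 33.8 CPM against 314, 446 and 738 CPM and Gm16485 0.572, 0.859 and 0.319 CPM against 9.81, 14.1 and 12.3 CPM. Of 1967 long noncoding genes 122 (6.20%) were higher and 132 (6.71%) lower than in WT. Of 29 named long noncoding RNAs, Lncpint (1.14, 0.910 and 1.46 CPM against 0.155, 0.171 and 0.307 CPM) was higher, and Bvht (3.01, 4.95 and 5.54 CPM against 15.2, 15.8 and 19.3 CPM) and Epb41l4aos (11.2, 15.4 and 11.8 CPM against 16.9, 21.6 and 38.3 CPM) were lower. Among all genes 5.54% were higher and 5.73% lower, so these counts are not a result about long noncoding RNAs. Bvht alone of the 3 kept the call under all 12 alternatives, and Epb41l4aos lost it in 7.

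Among markers of other cell types few members passed the test. Endothelial markers were higher for 2 of 18 members (Flt1 and Plvap), and for 14 of the 18 every day 0 library was above every WT library (23.4% of all genes), with summed levels of 227 to 469 CPM at day 0 and 37.97 to 107 CPM in WT. Flt1, a VEGF receptor, had 24.7, 31.3 and 29.5 CPM against 4.83, 7.90 and 6.24 CPM (log2 fold change 2.17 ± 0.54, edgeR adjusted p = 0.0217), and Plvap, of the endothelial diaphragm, 27.3, 31.1 and 62.1 CPM against 2.45, 5.40 and 6.21 CPM (log2 fold change 3.10 ± 0.93, edgeR adjusted p = 0.0435). Macrophage markers were higher for 2 of 20 (the receptors Csf1r and Cx3cr1), with every day 0 library above every WT library for 15. In the main fit 5.54% of all genes were higher. With 1 library left out 0 or 1 endothelial and no macrophage genes were called, with the block 1 and 0, in DESeq2 7 and 8, and without the libraries that stood apart 8 and 13. With only the 6 libraries compared 11 and 15 were higher, where 2794 of 16484 genes were. Csf1r had 26.8, 40.5 and 38.7 CPM against 2.92, 2.07 and 3.90 CPM (log2 fold change 3.58 ± 0.97, edgeR adjusted p = 0.0294). Lymphocyte markers summed to 22.4 to 27.4 CPM at day 0 and 3.86 to 8.18 CPM in WT, with Cd8a and Gzmb called, 0 or 1 of them with a library left out. The B cell gene Ms4a1 was at 0 in both groups.

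Red cell genes were present at day 0 and near absent in WT. Hbb-bs, an adult beta globin, had 14.7, 17.1 and 10.5 CPM at day 0 and Hba-a1, an alpha globin with a near-identical copy, 12.3, 15.6 and 9.23 CPM, and both had 0 counts in WT, at least 538-fold and 472-fold higher against the floor with pooled reads. The 5 erythroid calls, with a median log2 fold change of 9.28 as fitted and 6.68 with the genes at 0 set to their bound, were all lost when any library was left out. In the opposite direction, skeletal muscle markers summed to 15.4 to 26.7 CPM at day 0 and 72.98 to 292 CPM in WT. WT replicate 3 was the highest WT library for all 13 of them, and no member passed the test in the main fit. With only the 6 libraries compared 9 were lower, where 2817 of 16484 genes were. The developmental myosin Myh3 (0.104, 0 and 0.0355 CPM at day 0, 18.4, 23.2 and 81.7 CPM in WT) and the cardiac actin Actc1 (0.0520, 0 and 0.106 CPM, 10.5, 7.11 and 35.2 CPM), both among the 15 largest falls, were also highest in WT replicate 3. Fibroblast and matrix genes were lower for 1 of 22 (Twist2), adipocyte genes for 1 of 12 (Pparg) and neutrophil genes for 1 of 9 (Camp), while Schwann cell and nerve genes were higher for 1 of 8 (Cdh19) and pericyte genes for 1 of 8 (Kcnj8). With 5.54% higher and 5.73% lower among all genes, single calls in lists of this size are not a result about the cell types, and each of the 5 was lost in at least 4 alternatives. Against 6 day PyMT organoids 8 endothelial and no macrophage genes were higher at day 0 in edgeR, where 771 of all 18698 genes were. The counts became 13 and 7 with the replicate block, where 645 of all genes were higher. They were 17 and 16 without the libraries that stood apart, where 3051 of 18591 genes were higher. The part of these cell types in the results above was not tested.

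**Figure D5:**
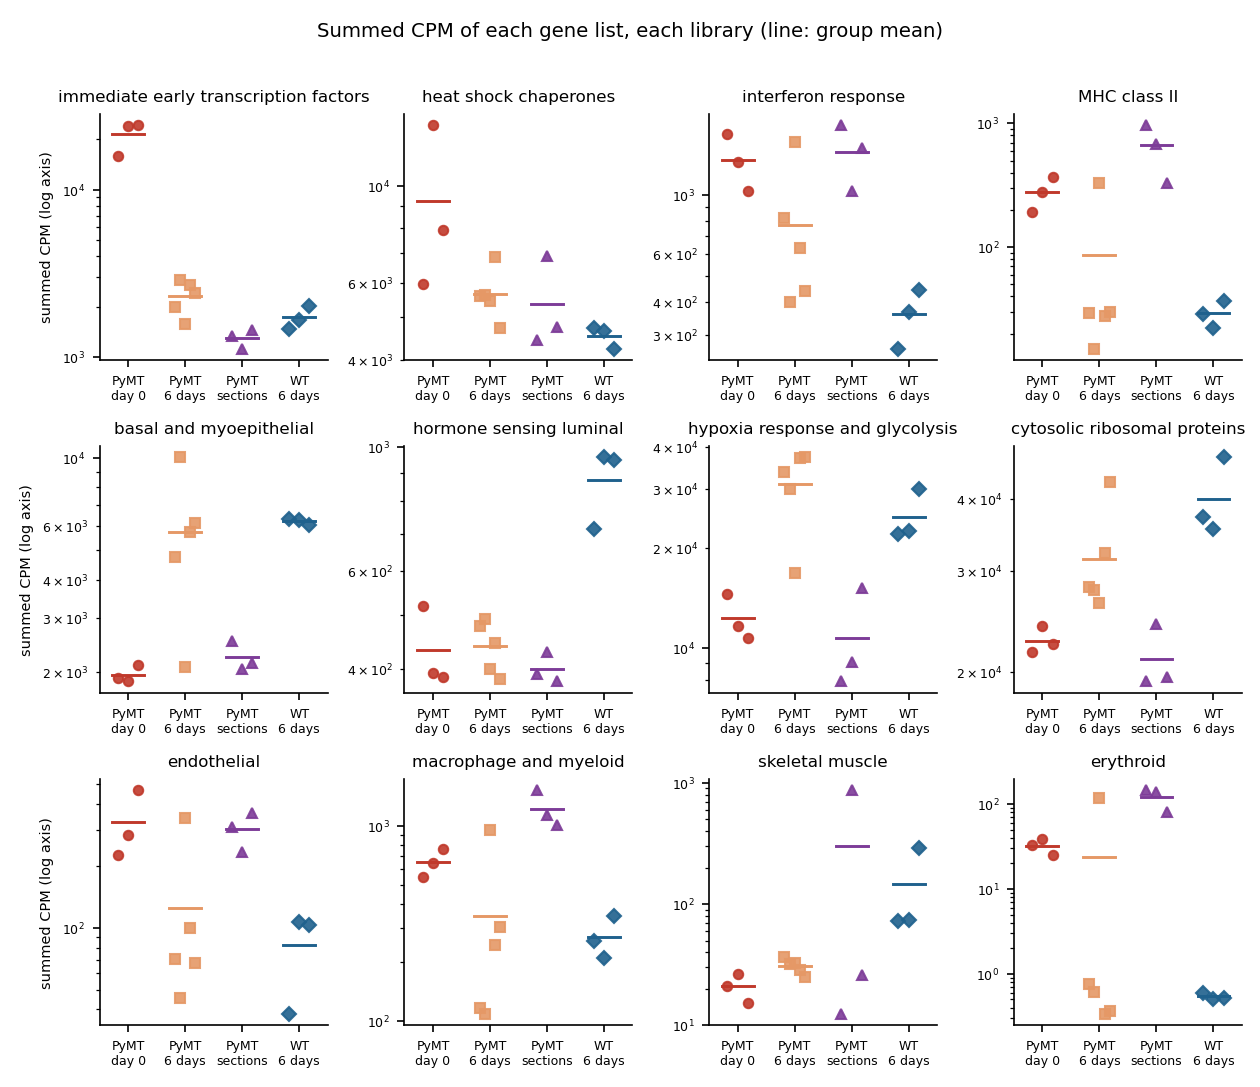
Summed CPM (log axis) of 12 gene lists in each library of PyMT organoids at day 0, PyMT organoids after 6 days, PyMT tumor sections and WT organoids after 6 days; lines are group means. Immediate early genes are high at day 0 alone, whereas for interferon, MHC class II, endothelial and erythroid genes the day 0 libraries lie above all WT libraries. In those 4 lists day 6 replicate 3 is the highest of the 5 cultured PyMT libraries.

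Across all genes, PyMT day 0 organoids were higher than 6 day PyMT organoids for 771 genes (4.12%) and lower for 766 (4.10%). The total of 1537 became 997 with the block, and without the 2 libraries that stood apart it became 5701. With only the 8 libraries compared it was 66. The 6 largest rises under the rule were Fosb, Atf3 and Dusp1, the G protein regulator Rgs1, Adamtsl2 and Galnt9. Rgs1, induced in activated immune cells, had 38.8, 46.8 and 24.8 CPM at day 0 and 0.0335 to 4.62 CPM after 6 days (log2 difference 6.66 ± 0.80, edgeR adjusted p = 0.000207). The 6 largest falls were Fgfbp1, Mogat1, Wfdc2, Dram1, Ly6d and Acpp. Fgfbp1, which carries FGFs from the matrix to their receptors, had 1.87, 1.21 and 0.461 CPM at day 0 and 2.17 to 153 CPM after 6 days (log2 difference -6.28 ± 1.14, edgeR adjusted p = 0.00709), and 42.9, 35.01 and 48.8 CPM in WT. In the same direction the squamous and progenitor marker Ly6d had 18.8, 25.3 and 32.4 CPM at day 0, 64.4 to 788 CPM after 6 days and 599.7, 508 and 909 CPM in WT. With the block Mogat1, Ly6d and Acpp no longer passed the test (edgeR adjusted p = 0.0513, 0.0553 and 0.0916).

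Against PyMT tumor sections, the other uncultured PyMT samples, 83 genes were called, 80 higher and 3 lower at day 0, and without the libraries that stood apart 170 were higher and 73 lower. Socs3 had 294, 570.5 and 360.0 CPM at day 0 against 21.5, 19.9 and 8.32 CPM in sections (log2 difference 4.62 ± 0.61, edgeR adjusted p = 0.000836), and Cxcl2 24.8, 27.3 and 20.2 CPM against 0.454, 0.0503 and 0.792 CPM (log2 difference 5.76 ± 0.86, edgeR adjusted p = 0.00263). Of the 3 falls, 2 were the zinc finger genes Zfp719 (8.26, 8.19 and 9.34 CPM against 23.4, 19.1 and 17.8 CPM) and Zfp260 (62.8, 56.7 and 63.3 CPM against 111, 105 and 92.9 CPM). Over all genes, 7.6% were higher and 10.6% lower in every day 0 library than in every section. Fibroblast genes were lower in this sense for 18 of 22 members and macrophage genes for 16 of 20, though none of either list was called in edgeR with all libraries and 1 macrophage gene was lower without those that stood apart. The comparisons with WT organoids, cultured PyMT organoids and tumor sections share the same 3 day 0 libraries and are not independent of each other.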

How the data were processed

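Per the labels, polyadenylated RNA was extracted with TRIzol and sequenced from TruSeq libraries. Tools named in the submitters' processing notes, with no version given, are STAR, HTSeq, CASAVA, FastQC and DESeq2, and the genome build there is mm10. The deposited values, made by the authors, are raw counts of reads per gene, with 45318 Ensembl IDs per library. Lines for reads on no gene, several genes or several places were left out of library sizes. The annotation release, strand setting and counting mode are not given in the sources used here. Names and positions came from GENCODE M21, which matched 44671 IDs without version. Promoter sequences came from RefSeq (GRCm38.p6).

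A single edgeR 4.0.16 quasi-likelihood model (R 4.3.3; TMM, filterByExpr, robust; 1 mean per group; 13 residual degrees of freedom, common dispersion 0.193) covered all 20 libraries. A gene was called at an adjusted p (Benjamini-Hochberg, over the 18698 genes tested) under 0.05. The 6 day PyMT mean weighted titled and undated groups equally. SE is the log2 fold change over the square root of F. CPM are per TMM-adjusted library size. Folds against groups with 0 counts used a floor of 3 counts over the group, set against pooled reads unless a mean of libraries is named, and groups with 1 to 3 counts have an exact 95% interval, both for counting error only. Intervals assume that reads are independent molecules.

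The 40 lists (742 entries, 711 tested; low counts removed 27 and 4 names were not in the tables) and the members were chosen with earlier results of these data known. Named genes are the 15 largest rises and falls against WT (adjusted p under 0.05, at least 10 CPM, no overlap), 4 predicted or noncoding genes each way, the 5 most significant each way with at least 50 CPM, Erbb2, the 4 smallest p of each list with those going the other way, and the 6 largest each way against other PyMT samples. List members beyond these, Krt5, Krt14, Esr1, Myc and Dusp1 among them, were picked as examples after their values were seen. Some genes that the rule names are not reported here.

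Whether replicate numbers pair libraries was checked by correlating, over genes, deviations from group means. Only PyMT day 0 and day 6 passed (r = 0.287, 0.428 and 0.317), and the labels state no pairs. Day 0 and WT did not (r = -0.0169, 0.0274 and 0.0067). On simulated counts for 18490 genes in the layout of day 0 against WT, 15% of the 100 genes given a 2-fold change were called and 68% of the 100 given a 4-fold change, and 1.19% of calls fell on genes left unchanged. Alternatives were no filter on low counts, RLE scaling, DESeq2 1.42.0, only the libraries compared, a replicate block, leaving out the 2 libraries that stood apart, and leaving out each library in turn.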

Additional observations from a re-analysis of the deposited data

How the results depend on the processing

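For PyMT day 0 against WT organoids, the 1035 higher and 1072 lower genes became 668 higher without a filter, 2374 and 2244 without the libraries that stood apart, 1878 and 1658 in DESeq2, 2794 and 2817 with only the 6 libraries compared, and 612 and 613 with a replicate block, although replicate numbers did not pair these libraries. Leaving out 1 library gave 310 to 612 higher and 276 to 483 lower genes, and each of the 6 libraries moved at least 1 of these counts by more than 1.5 times. RLE scaling gave 1131 and 980, and 787 genes were lower without a filter, all within 1.5 times. Of the calls, 1025 higher and 1052 lower genes were shared with DESeq2. Of 191 genes in the lists or named that were called, 76 kept the call under all 12 alternatives, and no result changed direction while called. Lists with the most such genes were immediate early factors (15 of 17), NF-kB and cytokines (8 of 11) and interferon genes (11 of 19), and erythroid, glycolysis, endothelial and macrophage genes had none. The 1537 genes of day 0 against 6 day PyMT organoids became 896 without a filter, 5701 without the libraries that stood apart, 2963 in DESeq2, 66 with only the libraries compared and 997 with the replicate block, and 232 to 4527 with 1 library left out (4527 without day 6 replicate 3, 232 without day 0 replicate 2, 370 without day 0 replicate 3, 424 without undated replicate 1, 476 without day 0 replicate 1, 678 without undated replicate 2 and 842 without day 6 replicate 1). The 728 genes of 6 day PyMT against WT organoids became 3071 without the libraries that stood apart, 1800 in DESeq2, 340 with the block, and 81 to 2025 with 1 library left out. The 83 genes against tumor sections became 243 without the libraries that stood apart, 219 in DESeq2, 191 with only the libraries compared, and 47 to 74 with 1 library left out. The cause of these shifts was not tested. In the simulation the 2-fold changes were mostly missed, with 200 of 18490 genes changed, whereas 2107 of 18698 genes were called in the data. Its recovery rate thus need not hold for the data. Whether the misses come from having 3 libraries a side was not tested.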

Other observations

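Some gene families were counted as a whole by name or type, and were picked after their values were seen. A few of their members are also in the lists. Of 361 tested zinc finger genes named Zfp, 5 (1.39%) were higher and 38 (10.5%) lower at day 0 than in WT organoids, where 5.54% and 5.73% of all genes were. The median log2 fold change of this family was -0.25. Many of these genes encode DNA-binding repressors with a KRAB domain.

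Of 41 tested replication-dependent histone genes, 9 (22.0%) were higher and none lower at day 0 than in WT organoids, with a median log2 fold change of 1.20, and 14 (34.1%) were higher at day 0 than in 6 day PyMT organoids. Their mRNAs normally end in a stem-loop without a poly(A) tail, and the libraries were made from polyadenylated RNA. The DNA replication list itself had no call against WT.

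Genes named Dusp (dual-specificity phosphatases, some of which inactivate MAP kinases) were higher at day 0 than in WT for 4 of 23 tested (17.4%). None was lower, where 5.54% of all genes were higher and 5.73% lower. Against tumor sections 1 of the 23 was higher. Of 1967 long noncoding genes, 122 (6.20%) were higher and 35 (1.78%) lower at day 0 than in 6 day PyMT organoids, with a median log2 difference of 0.35, while 4.12% and 4.10% of all genes were.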
